A study of Mus musculus with 12 samples.

Results

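The 40 genes described here encode proteins of DNA replication and mitosis. They were taken by symbol from the 56691 entries of the deposited count table. All 40 symbols were present, and 37 had enough counts to be tested. They comprise 17 S-phase genes (origin licensing, the replicative helicase, nucleotide supply and the replication fork), 9 cyclins and cyclin-dependent kinases (CDKs), and 14 mitotic genes (spindle, kinetochore, chromosome condensation and mitotic exit). The counts come from MC3T3-E1, a single mouse calvarial pre-osteoblast line of wild-type genotype. All cells were kept until day 28 in osteogenic medium, which held 0.1 µM dexamethasone, 50 µg/ml ascorbic acid and 10 mM beta-glycerophosphate (BGP, a phosphate donor). From day 27 and for 24 h, 4 groups of 3 libraries received 25-hydroxyvitamin D (25(OH)D, from which the active hormone is made) with a further 4 mM BGP, 25(OH)D with ZK191784, 25(OH)D alone, or no addition (control). 25(OH)D and ZK191784 were each given at 100 µM as labelled, a unit that may be a slip and that the sources used here do not settle. No library received ZK191784 or the added BGP without 25(OH)D.

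In a dividing cell, replication origins are licensed in G1 when CDC6 and CDT1 load the MCM helicase, and DNA is then copied in S phase with PCNA as the sliding clamp and with nucleotides made by ribonucleotide reductase and thymidylate synthase. Many of these genes are transcribed through E2F factors once cyclin D with CDK4 and cyclin E with CDK2 have inactivated the RB proteins, whereas mitotic genes are switched on later, in G2, through a promoter element called the CHR (cell cycle genes homology region) and nearby CCAAT boxes. Osteoblasts leave the cell cycle as they mature, and the active vitamin D hormone is known to slow the growth of many cell types.

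The promoters of the S-phase and mitotic genes differed in these elements. RefSeq promoter windows of 300 bases (build GRCm38.p6, 250 bases before to 50 after the gene start) were available for 15 of the 17 S-phase genes, 6 of the 9 cyclins and CDKs and 12 of the 14 mitotic genes. They were searched on both strands for E2F letters (TTTCCCGC, TTTGGCGC, TTTCGCGC or TTTGCCGC), CHR letters (TTTGAA or TTCGAA) and CCAAT. E2F letters were present in 8 of 15 S-phase genes (53.3%), 2 of 6 cyclins and CDKs (33.3%) and 0 of 12 mitotic genes, against 704 of 27025 genes in the whole table (2.61%). CHR letters showed the opposite distribution, with 2 of 15 S-phase genes (13.3%), 2 of 6 cyclins and CDKs (33.3%) and 10 of 12 mitotic genes (83.3%), against 21.7% of all genes. CCAAT was found in 60.0% of the S-phase genes, 66.7% of the cyclins and CDKs and 91.7% of the mitotic genes, against 41.1% of all genes. These matches describe letters in the windows and are not measured binding sites, and base composition was not matched. Windows of 4 genes are printed because they show the range of arrangements among the genes discussed: Mcm5 (chr8:75109259-75109558, plus strand), where 2 E2F matches in opposite orientation overlap from position -153, Hells (chr19:38930740-38931039, plus strand), with 1 E2F match at position -62, Plk1 (chr7:122159185-122159484, plus strand), with 1 CHR match at position 31, and Cdk1 (chr10:69352863-69353162, minus strand), which holds an E2F match at position -131 and CHR matches at positions -71 and -15. Capitals mark the E2F and CHR letters, and each sequence runs 5′ to 3′ on the strand of the gene.
Mcm5: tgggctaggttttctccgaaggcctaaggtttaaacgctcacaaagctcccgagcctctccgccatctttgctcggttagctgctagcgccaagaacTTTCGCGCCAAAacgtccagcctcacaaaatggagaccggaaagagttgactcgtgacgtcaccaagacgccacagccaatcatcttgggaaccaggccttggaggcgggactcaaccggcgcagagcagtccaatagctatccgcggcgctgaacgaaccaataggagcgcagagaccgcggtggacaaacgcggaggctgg
Hells: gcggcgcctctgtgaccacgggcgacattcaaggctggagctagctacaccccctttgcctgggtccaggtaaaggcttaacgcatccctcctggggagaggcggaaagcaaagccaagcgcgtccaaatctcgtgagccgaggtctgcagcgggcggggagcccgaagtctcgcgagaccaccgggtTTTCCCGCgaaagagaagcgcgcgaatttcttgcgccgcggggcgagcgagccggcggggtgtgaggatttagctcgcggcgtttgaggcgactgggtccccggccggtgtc
Plk1: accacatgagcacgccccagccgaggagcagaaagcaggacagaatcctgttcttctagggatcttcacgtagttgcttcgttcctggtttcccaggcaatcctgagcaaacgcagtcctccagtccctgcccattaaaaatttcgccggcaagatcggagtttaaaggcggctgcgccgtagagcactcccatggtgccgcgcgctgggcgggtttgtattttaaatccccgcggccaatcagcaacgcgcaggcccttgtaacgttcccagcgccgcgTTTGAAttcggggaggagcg
Cdk1: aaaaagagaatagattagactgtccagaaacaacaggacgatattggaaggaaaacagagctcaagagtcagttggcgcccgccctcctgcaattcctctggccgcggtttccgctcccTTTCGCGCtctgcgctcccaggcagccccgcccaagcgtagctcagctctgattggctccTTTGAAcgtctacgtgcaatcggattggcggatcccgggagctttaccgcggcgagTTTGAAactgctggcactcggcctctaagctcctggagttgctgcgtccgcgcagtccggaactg
Of the members discussed below, Cdc6, Cdt1, Mcm3, Mcm6, Cdk2 and 1 of the windows each of Mcm7 and Uhrf1 also held E2F letters. The windows of Rrm1, Rrm2, Tyms, Ung, Pcna, Rfc4, Ccne1, Ccnb1, Cdk4, Cenpe and Birc5 held neither E2F nor CHR letters. The absence of a match says only that these letters were not in that window.

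**Figure D1:**
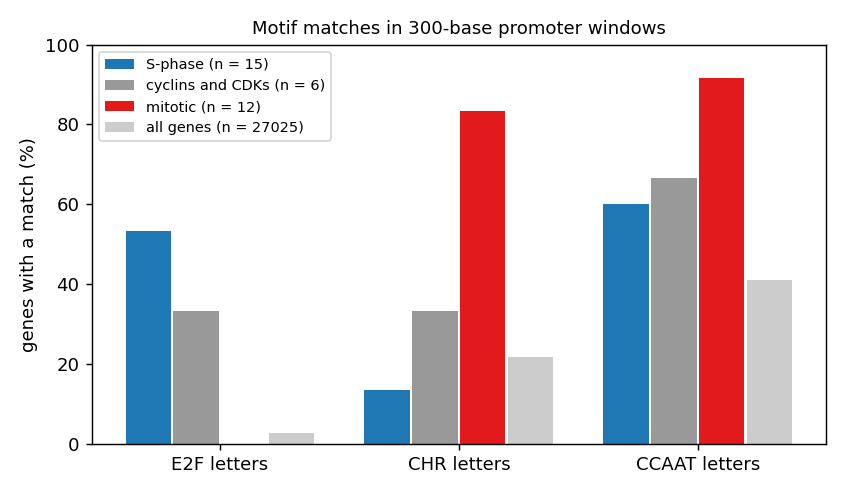
Share of genes (%, vertical axis) whose 300-base promoter window held E2F, CHR or CCAAT letters (horizontal axis), for the S-phase genes, the cyclins and CDKs, the mitotic genes and all genes of the RefSeq table. E2F letters occurred in 53.3% of the S-phase genes and in none of the 12 mitotic genes, and CHR letters in 13.3% and 83.3%.

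The 12 libraries held between 3318723 and 5170980 counts each. Levels are given as CPM, the count scaled to the size of its library after adjustment by the trimmed mean of M values (TMM). The method reads 3′ tags, so CPM are not scaled by transcript length and levels are compared within a gene only. Whether the 3 libraries of a group came from separate cultures is not stated, and p-values therefore measure only the spread between these libraries. In such bulk RNA, fewer dividing cells and less RNA of these genes per cell cannot be told apart. All 8 osteoblast markers were detected, with a summed level of 17769 to 21164 CPM with 25(OH)D and BGP, 63255 to 73929 CPM with 25(OH)D and ZK191784, 21256 to 23919 CPM with 25(OH)D and 123918 to 138864 CPM in control. This sum moved between the groups in the same order as the S-phase levels below, except that the 25(OH)D group with BGP and the 25(OH)D group changed places, and its part in those results was not tested. Sparc had the most counts of the 8 markers (950635 in control). Alpl alone had more counts with 25(OH)D than in control, at 601, 378, 562 and 329 in the 4 groups as listed. Of the other cell types, all 5 myeloid markers had counts, at summed levels of 168 to 350.1, 195 to 360.1, 178 to 328 and 197 to 413 CPM in these 4 groups, which overlapped. Of the 4 endothelial markers, Cdh5 had no counts and the other 3 had some, with sums of 22.9 to 49.6, 24.8 to 56.5, 17.1 to 43.3 and 26.2 to 62.6 CPM. Adipocyte markers summed to 2.80 to 3.64, 5.06 to 7.37, 1.06 to 4.28 and 6.32 to 9.04 CPM, and osteocyte markers to 74.6 to 76.6, 86.8 to 117, 51.2 to 65.8 and 111 to 150.1 CPM. Both of these were lower with 25(OH)D than in control without overlap, as the S-phase average was, and their part in the S-phase results was not tested. Not every marker followed its sum: Adipoq had 8 counts with 25(OH)D and 1 in control, and Dmp1 had 36 and 33. The 4 chondrocyte markers all had counts, with sums of 64.0 to 118, 86.8 to 179, 66.6 to 150.03 and 99.5 to 244 CPM, which overlapped. Libraries also differed in the balance of ribosomal protein gene counts to counts of predicted Gm-numbered genes and ribosomal pseudogenes. Its log2 ratio was highest in library 2 of 25(OH)D with BGP (-0.44), library 1 of 25(OH)D with ZK191784 (-0.78), library 1 of 25(OH)D (-0.44) and library 3 of control (-0.57), and lay between -1.78 and -1.11 in the other 8.

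The first question was what 25(OH)D did to these genes. Averaged over their class, the S-phase genes were lower with 25(OH)D than in control, while the average of the 14 mitotic members overlapped between the groups, although Birc5 among them fell. This contrast is between the members chosen: in wider lists of 44 other replication genes and 57 other mitotic genes the median log2 differences were -0.36 and -0.39, close to each other. Averaged over all 17 S-phase genes, the level was 3.31, 3.23 and 3.30 log2(CPM + 0.5) in the 25(OH)D libraries, against 3.97, 3.92 and 3.91 in the control libraries. The groups did not overlap, with a difference of -0.65 between means of 3.28 ± 0.04 and 3.93 ± 0.03 (SD, n = 3 each). Rare genes weigh as much in this average as abundant ones. Mean CPM with 25(OH)D and in control were 0.855 and 3.48 for Uhrf1, 1.05 and 3.75 for Cdc6, and 2.07 and 6.23 for Ung. They were 0.258 and 0.859 for Gins2, and 1.87 and 1.78 for Rfc4. How much of the difference these rare genes carry was not worked out. Summed over the same 17 genes, the level was 297 ± 3.20 CPM with 25(OH)D and 419 ± 20.4 CPM in control, which was 29.2% lower. No test was made of these averages, because the genes were chosen with results of these data known. Gene by gene, 5 of the 37 members tested passed an adjusted p under 0.05 (Benjamini-Hochberg over 14394 genes, edgeR's quasi-likelihood test), all lower with 25(OH)D. Of all genes tested, 3.93% were called lower and 4.76% higher. The 5 were the S-phase genes Mcm5, Rrm1, Ung and Uhrf1 and the mitotic gene Birc5. At an unadjusted p under 0.05, 12 members were lower and none higher (of all genes, 9.39% were lower and 10.2% higher at this level), and 10 of the 12 were S-phase genes. The libraries of 14 tested members did not overlap, all lower with 25(OH)D, 10 of them S-phase genes, against 10.8% of all genes. Cdc6, Ung and Uhrf1 are among the 10 S-phase genes of both counts. They had enough counts for the test through groups where they were high, so these counts support nothing further. No member was called higher by edgeR or by DESeq2.

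**Figure D2:**
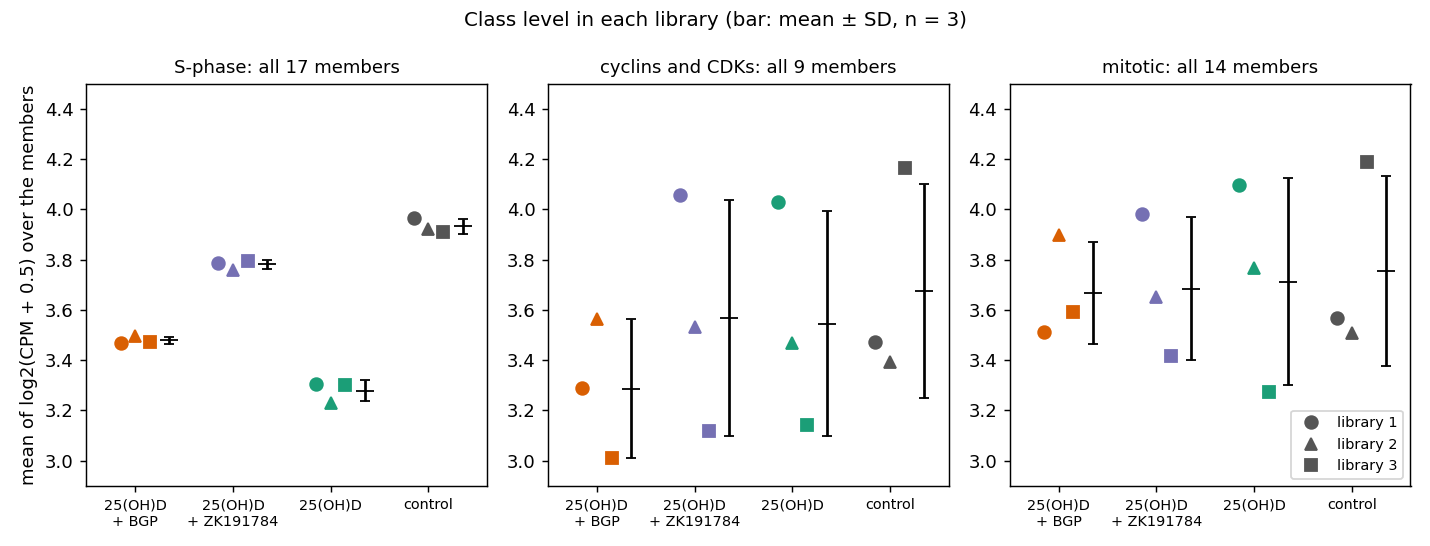
Mean of log2(CPM + 0.5) (vertical axis) over the 17 S-phase genes, the 9 cyclins and CDKs and the 14 mitotic genes in each library of the 4 groups (horizontal axis), with the mean ± SD of 3 libraries beside the points. S-phase levels were 3.23 to 3.31 with 25(OH)D and 3.91 to 3.97 in control, which were apart, whereas mitotic levels ranged from 3.27 to 4.10 inside the 25(OH)D group alone.

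Among the helicase subunits, Mcm5 had 24.9, 27.7 and 34.1 CPM in the 25(OH)D libraries, against 67.6, 67.2 and 55.9 CPM in the control libraries. Every 25(OH)D library lay below every control library. Mcm5 fell by 1.14 on the log2 scale (SE 0.19, adjusted p = 0.00176, edgeR). The differences of the other subunits of the same ring were negative and of different size, and none passed the test. Mcm3 had 24.9, 37.8 and 42.0 CPM with 25(OH)D, against 65.5, 65.8 and 47.6 CPM in control (log2 difference -0.77 ± 0.23 SE, adjusted p = 0.0544, edgeR). Mcm2 had 7.76, 15.9 and 20.1 CPM with 25(OH)D and 25.4, 25.5 and 21.9 CPM in control (-0.73 ± 0.30, adjusted p = 0.179). Mcm4 had 15.8, 11.6 and 15.6 CPM with 25(OH)D and 24.0, 18.1 and 18.8 CPM in control (-0.50 ± 0.21, adjusted p = 0.198). The groups did not overlap for any of these 4 subunits, whereas they overlapped for Mcm6 (-0.18 ± 0.20) and for Mcm7 (-0.40 ± 0.33). Exons of Mcm7 overlap genes on the other strand, and no source used here gives the strand setting of the counts, so its level is uncertain.

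The loaders of this ring had differences of opposite sign, and neither passed the test. Cdc6, which brings the helicase to the origin, had 0.802, 0.241 and 2.11 CPM with 25(OH)D, against 2.64, 5.06 and 3.57 CPM in control. Its groups were apart, with a log2 difference of -1.83 ± 0.60 (SE, adjusted p = 0.0900, edgeR). Cdt1, its partner in loading, had 47.1, 48.0 and 20.1 CPM with 25(OH)D and 16.3, 23.2 and 39.7 CPM in control, with overlapping groups and a difference of 0.54 ± 0.40 (adjusted p = 0.525). It was the only S-phase gene tested with a positive difference, the other 14 being negative, and 53.6% of all genes tested were negative. Uhrf1 reached the limit of the low-count filter in all 3 libraries of control only, and Cdc6 and Ung in all 3 of control and of ZK191784 only, so this count and the medians below describe the tested genes and support nothing further.

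Of the 3 genes of nucleotide supply, 1 passed the test. Rrm1, the large subunit of ribonucleotide reductase, had 37.7, 32.1 and 36.2 CPM with 25(OH)D, against 53.2, 50.2 and 51.6 CPM in control. Its 2 groups were narrow and apart, and Rrm1 fell by 0.55 (SE 0.14, adjusted p = 0.0230, edgeR). Rrm2, the small subunit, had 10.4, 8.20 and 5.28 CPM with 25(OH)D and 11.3, 9.27 and 18.8 CPM in control, with overlap and a difference of -0.71 ± 0.36 (adjusted p = 0.313). Tyms, thymidylate synthase, had 15.5, 13.5 and 15.3 CPM with 25(OH)D and 21.3, 24.9 and 20.2 CPM in control. Its groups were apart (-0.58 ± 0.21, adjusted p = 0.127). The sliding clamp Pcna hardly differed, with 36.9, 45.3 and 30.4 CPM with 25(OH)D and 35.2, 46.2 and 39.3 CPM in control (-0.10 ± 0.22, adjusted p = 0.847). Pcna has a processed copy, Pcna-ps2, with 916 counts against 2133 for Pcna, so its reads may be split between them.

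Of 3 repair and chromatin factors of the fork, Ung and Uhrf1 passed the test, both at low counts. Uhrf1 reached the count limit of the filter in 3 control libraries and in none with 25(OH)D, and Ung in 3 control libraries and 1 with 25(OH)D. Both entered the test through groups where they were high, and these 2 of the 5 calls are conditioned on that. Ung, the uracil-DNA glycosylase that removes uracil from new DNA, had 2.94, 1.69 and 1.58 CPM with 25(OH)D, against 5.99, 4.85 and 7.85 CPM in control, and fell by 1.58 (SE 0.42, adjusted p = 0.0350, edgeR). Uhrf1, which directs maintenance methylation to newly copied DNA, had 1.34, 0.964 and 0.264 CPM with 25(OH)D, against 2.40, 4.00 and 4.04 CPM in control, and fell by 1.99 (SE 0.55, adjusted p = 0.0398). Both genes had groups that did not overlap. Hells, a chromatin remodeler of the same process, had 8.02, 6.03 and 8.45 CPM with 25(OH)D and 11.03, 13.3 and 14.7 CPM in control, also apart, with a difference of -0.80 ± 0.25 that did not pass (adjusted p = 0.0800).

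**Figure D3:**
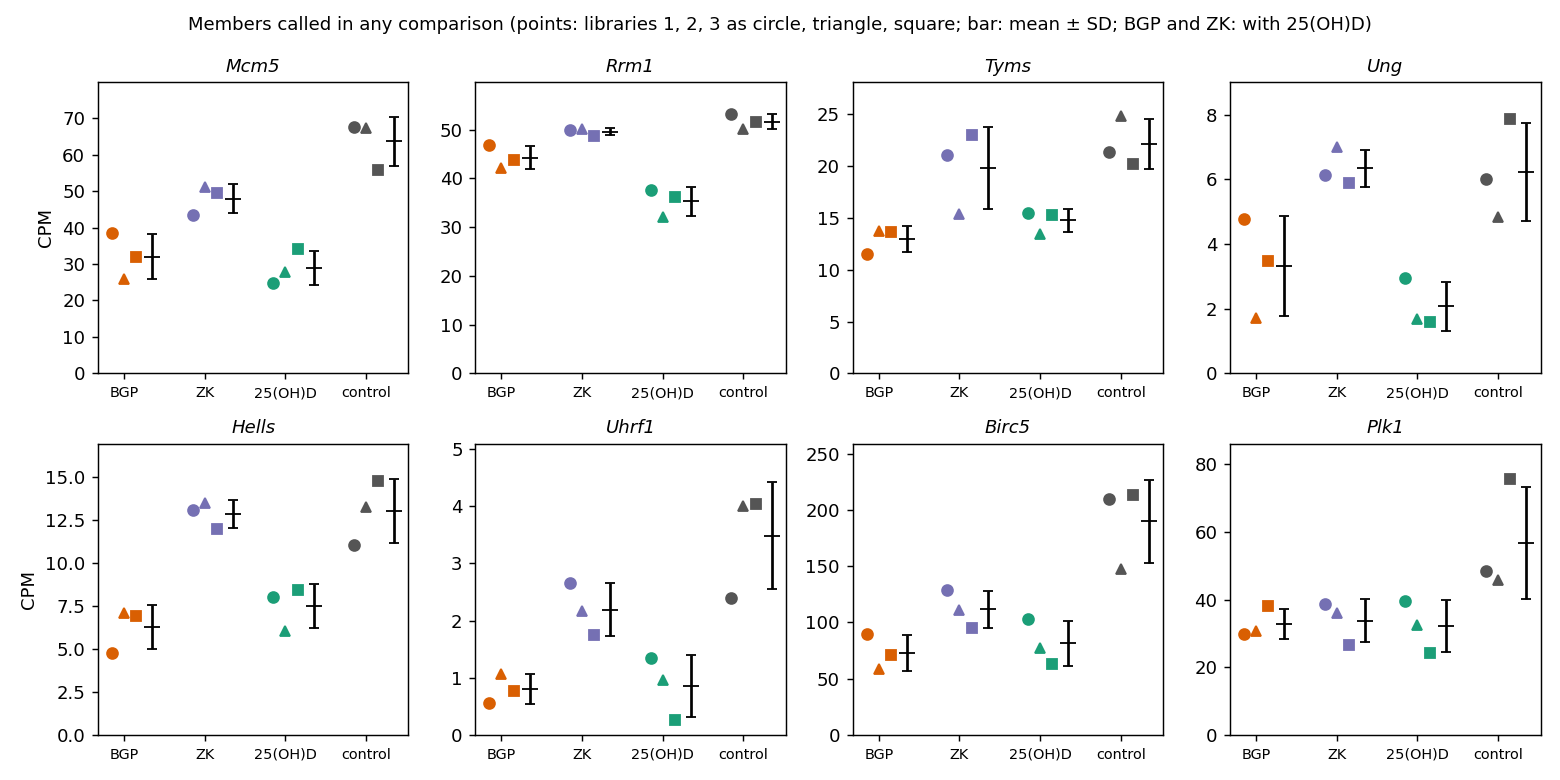
CPM (vertical axes, from 0) of the 8 members called in any comparison, in each library of the 4 groups (horizontal axes; BGP and ZK stand for 25(OH)D with BGP and with ZK191784), with the mean ± SD of 3 libraries beside the points. For Mcm5 the 3 libraries with 25(OH)D alone (24.9 to 34.1 CPM) lie below the 3 with ZK191784 (43.4 to 51.1 CPM) and below the 3 control libraries (55.9 to 67.6 CPM).

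The calls of Mcm5 and Birc5 kept their side of the threshold under each alternative tried, including without each library (highest adjusted p of 0.0177 for Mcm5 and 0.0258 for Birc5, edgeR). The other 3 were near the threshold. Rrm1 lost its call without any of the control libraries (adjusted p = 0.0796, 0.0613 and 0.0539) or of the 25(OH)D libraries (0.0507, 0.134 and 0.0560). Ung lost it without control libraries 1, 2 or 3 (0.0773, 0.0521 and 0.0981) and without 25(OH)D libraries 2 or 3 (0.158 and 0.103), and Uhrf1 without control libraries 2 or 3 (0.123 and 0.0967) and 25(OH)D libraries 1, 2 or 3 (0.0537, 0.126 and 0.117). With the ribosomal ratio of each library as a covariate, 14 members were called lower, with the same 5 among them, and 9.69% of all genes were. The others were Mcm2, Mcm3, Rrm2, Tyms, Cdc6, Hells, Ccnd1, Top2a and Plk1. DESeq2 called 9 members lower and 5.04% of all genes. These were the same 5 with Mcm3, Cdc6, Hells and Plk1. Cdc6 had passed the filter through groups where it was high.

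In the mitotic class, Birc5, the gene of the inhibitor of apoptosis protein survivin and a subunit of the chromosomal passenger complex, had 103, 77.6 and 63.1 CPM with 25(OH)D, against 209, 148 and 213 CPM in control. The groups were apart, and Birc5 fell by 1.22 (SE 0.23, adjusted p = 0.00398, edgeR). Plk1, a kinase of mitotic entry and spindle assembly, had 39.6, 32.5 and 24.3 CPM with 25(OH)D and 48.4, 45.7 and 75.7 CPM in control, also apart, with a difference of -0.82 ± 0.25 (adjusted p = 0.0657). None of the other 12 mitotic genes had an unadjusted p under 0.05 in this comparison, and all of them overlapped between the groups. Top2a, which untangles sister chromatids, had 188, 149 and 116 CPM with 25(OH)D and 180, 179 and 218 CPM in control (-0.35 ± 0.20, adjusted p = 0.394). The proliferation marker Mki67 had 34.5, 16.9 and 14.8 CPM with 25(OH)D and 15.1, 16.7 and 17.6 CPM in control (0.42 ± 0.31, adjusted p = 0.523). Aurkb, the kinase of the same complex as survivin, differed by -0.45 ± 0.44, the spindle kinase Aurka by -0.16 ± 0.45, and the checkpoint genes Bub1 and Bub1b by -0.11 ± 0.35 and 0.26 ± 0.44. Bub1b had 2.94, 2.41 and 2.38 CPM with 25(OH)D and 2.16, 1.69 and 2.62 CPM in control. The centromeric histone Cenpa (0.75 ± 0.95), the kinetochore motor Cenpe (0.33 ± 0.34), the spindle motor Kif11 (-0.21 ± 0.33), the spindle assembly factor Tpx2 (0.34 ± 0.28), and Ube2c (1.05 ± 0.63) and Cdc20 (-0.09 ± 0.41), which drive mitotic exit, did not pass either (adjusted p from 0.414 to 0.932 for these 6).

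The class level of the mitotic genes depended on how it was summed. Averaged on the log2 scale over all 14 genes it was 4.10, 3.77 and 3.27 in the 25(OH)D libraries and 3.57, 3.51 and 4.19 in the control libraries, with overlap and a difference of -0.04. The summed level was 28.0% lower with 25(OH)D, at 391 ± 107 CPM against 543 ± 95.03 CPM in control, but Top2a and Birc5 together hold most of that sum (38.0% and 26.6% over all libraries). On the sum, the libraries of the 2 groups overlapped (287 to 500.1 CPM with 25(OH)D and 462 to 648 CPM in control).

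None of the 8 cyclins and CDKs tested was called in this comparison by edgeR without a covariate, and none had an unadjusted p under 0.05 there. Ccnd1, the cyclin of early G1, had 125, 74.7 and 43.3 CPM with 25(OH)D and 74.3, 62.8 and 206 CPM in control (-0.50 ± 0.50, adjusted p = 0.642, edgeR). Its partner Cdk4 had 13.9, 11.1 and 10.0 CPM with 25(OH)D and 19.2, 14.3 and 15.7 CPM in control, and the cyclin E gene Ccne2 had 16.3, 12.1 and 11.6 CPM and 18.0, 17.3 and 17.6 CPM. Both of these were apart between the groups, without passing the test (adjusted p = 0.285 and 0.440). Ccna2, the cyclin of S phase and G2, differed by -0.29 ± 0.22, Cdk2 by -0.02 ± 0.38, Ccnb2 by 0.07 ± 0.33, and the pair that triggers mitosis, Ccnb1 and Cdk1, by 0.53 ± 0.64 and 0.14 ± 0.86. Ccnd1, Ccne2, Ccna2, Cdk2 and Cdk4, and of the mitotic genes Plk1, Ube2c and Cdc20, overlap exons of another gene on the opposite strand, which leaves their levels uncertain. Ccnb1, Ccnb2 and Tyms have pseudogene copies with 50, 95 and 39 counts in all.

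Set side by side, the tested S-phase genes had a median log2 difference of -0.71 between 25(OH)D and control, the tested mitotic genes -0.10 and all genes tested -0.05. The mitotic median had no stable sign. It was 0.20 without control library 3, 0.01 without control library 1 or 25(OH)D library 3, -0.22 without control library 2, and 0.14 without the library of highest ribosomal ratio in each group. The S-phase average was nearly equal between libraries of a group, although single S-phase genes such as Cdt1 and Mcm7 were not. The median coefficient of variation within groups was 17.7% for the S-phase genes, 26.9% for the cyclins and CDKs and 24.1% for the mitotic genes. The library with the highest ribosomal ratio was also the one with the highest mitotic class level in all 4 groups: 3.90 in library 2 of 25(OH)D with BGP, 3.98 in library 1 of 25(OH)D with ZK191784, 4.10 in library 1 of 25(OH)D and 4.19 in library 3 of control. Mki67, Aurka, Cenpa, Cenpe, Kif11 and Ube2c each peaked in that library in all 4 groups, as did Ccnd1, Ccnb1, Cdk1 and Uhrf1, and 17.5% of all genes tested did so. Mcm2 and Mcm5 were lowest there in all 4 groups, as were 13.4% of all genes. Cdk1 was the plainest case, with 28.9 CPM in library 1 of 25(OH)D against 10.6 and 6.34 CPM in the others, and with 33.1 CPM in library 3 of control against 5.99 and 2.74 CPM. Ube2c had 16.8 CPM in library 1 of 25(OH)D against 7.47 and 2.91 CPM, and 7.85 CPM in library 3 of control against 1.68 and 3.58 CPM. The part of this library difference in the mitotic results was not tested. Without these 4 libraries, 2 members were called lower with 25(OH)D, Birc5 and Mcm5. Of all 14552 genes tested in that fit, 408 were called lower.

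**Figure D4:**
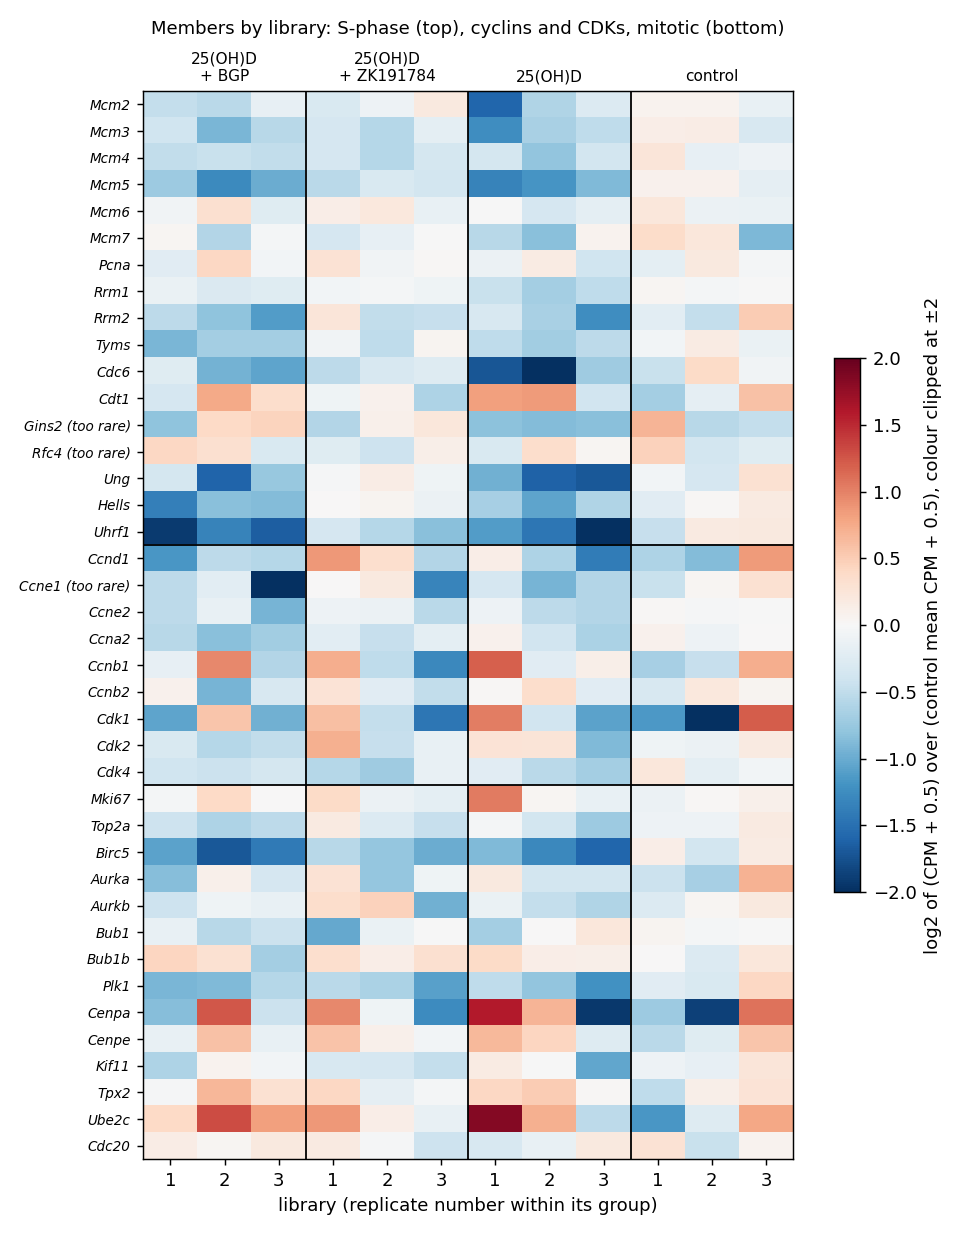
Each of the 40 members (rows) in each library (columns, by group), coloured by log2 of its CPM over its control mean, with 0.5 added to both. S-phase rows such as Mcm5 and Hells are blue in all 3 libraries with 25(OH)D alone, whereas mitotic rows such as Cenpa and Ube2c change colour between libraries of 1 group.

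The next comparison asked what adding ZK191784 to 25(OH)D changed. It shares the 25(OH)D libraries with the comparison above, so a low value in those libraries enters both with opposite sign. The S-phase level was higher with ZK191784: averaged over the 17 genes it was 3.79, 3.76 and 3.796 log2(CPM + 0.5) with ZK191784, against 3.31, 3.23 and 3.30 with 25(OH)D alone, a difference of 0.50. Summed, it was 373 ± 5.84 CPM with ZK191784 and 297 ± 3.20 CPM with 25(OH)D alone, a ratio of 1.26, and the libraries were apart. No single member passed an adjusted p under 0.05 with edgeR, where 1.42% of all genes were called higher and 2.11% lower. DESeq2 called 3 members higher, Mcm5, Rrm1 and Ung, and 2.33% of all genes. At an unadjusted p under 0.05, 7 members were higher and none lower (of all genes, 5.31% were higher and 6.1% lower), all 7 of them S-phase genes. Cdc6, Ung and Uhrf1 are among the 7 and had passed the filter through groups where they were high, so nothing is read from this count.

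Mcm5 had 43.4, 51.1 and 49.4 CPM with ZK191784, against 24.9, 27.7 and 34.1 CPM with 25(OH)D alone (log2 difference 0.73 ± 0.19 SE, adjusted p = 0.0560, edgeR). It was called without 25(OH)D library 3, and no other member was called without any single library. Ung had 6.14, 6.99 and 5.87 CPM with ZK191784 and 2.94, 1.69 and 1.58 CPM with 25(OH)D alone (1.60 ± 0.42, adjusted p = 0.0624). Rrm1 had 50.0, 50.1 and 48.7 CPM with ZK191784 and 37.7, 32.1 and 36.2 CPM with 25(OH)D alone (0.49 ± 0.14, adjusted p = 0.0787). For each of these 3 genes every ZK191784 library lay above every 25(OH)D library. The same held for Hells (13.1, 13.5 and 12.0 CPM with ZK191784, 0.78 ± 0.25), Cdc6 (2.46, 2.89 and 3.04 CPM, 1.40 ± 0.61) and Uhrf1 (2.66, 2.17 and 1.74 CPM, 1.33 ± 0.56), with adjusted p of 0.156, 0.391 and 0.361. These were the 6 of 37 tested members that were apart and higher, against 8.57% of all genes tested. Of the 6, Ung, Cdc6 and Uhrf1 had passed the filter through groups where they were high (Cdc6 and Uhrf1 in no library with 25(OH)D alone), so nothing is read from this count. Mcm2 overlapped, at 19.7, 22.7 and 27.8 CPM with ZK191784 (0.68 ± 0.29, adjusted p = 0.389).

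The remaining S-phase genes differed by 0.08 (Mcm4) to 0.51 (Rrm2), apart from Cdt1 with 24.8, 28.2 and 16.96 CPM with ZK191784 and a difference of -0.72 ± 0.40 (adjusted p = 0.592, edgeR). In this comparison the tested S-phase genes had a median of 0.49, the tested mitotic genes -0.04, the cyclins and CDKs 0.01 and all genes 0.02. This contrast too is between the members chosen. In the wider lists the median was 0.16 for the 44 other replication genes and 0.24 for the 57 other mitotic genes. No mitotic gene, cyclin or CDK had an unadjusted p under 0.05. Birc5 had 129, 111 and 95.4 CPM with ZK191784, overlapping the 25(OH)D libraries (0.46 ± 0.22, adjusted p = 0.491), and Plk1 had 38.7, 36.2 and 26.5 CPM (0.07 ± 0.25, adjusted p = 0.975). Ccnd1 had 209, 145 and 76.3 CPM with ZK191784 (0.82 ± 0.50, adjusted p = 0.649). With the ribosomal ratio as a covariate, Ccnd1, Mcm5, Rrm1, Mcm2, Hells and Ung were called higher and Cdt1 lower, beside 5.42% of all genes called higher and 5.96% lower in that fit.

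**Figure D5:**
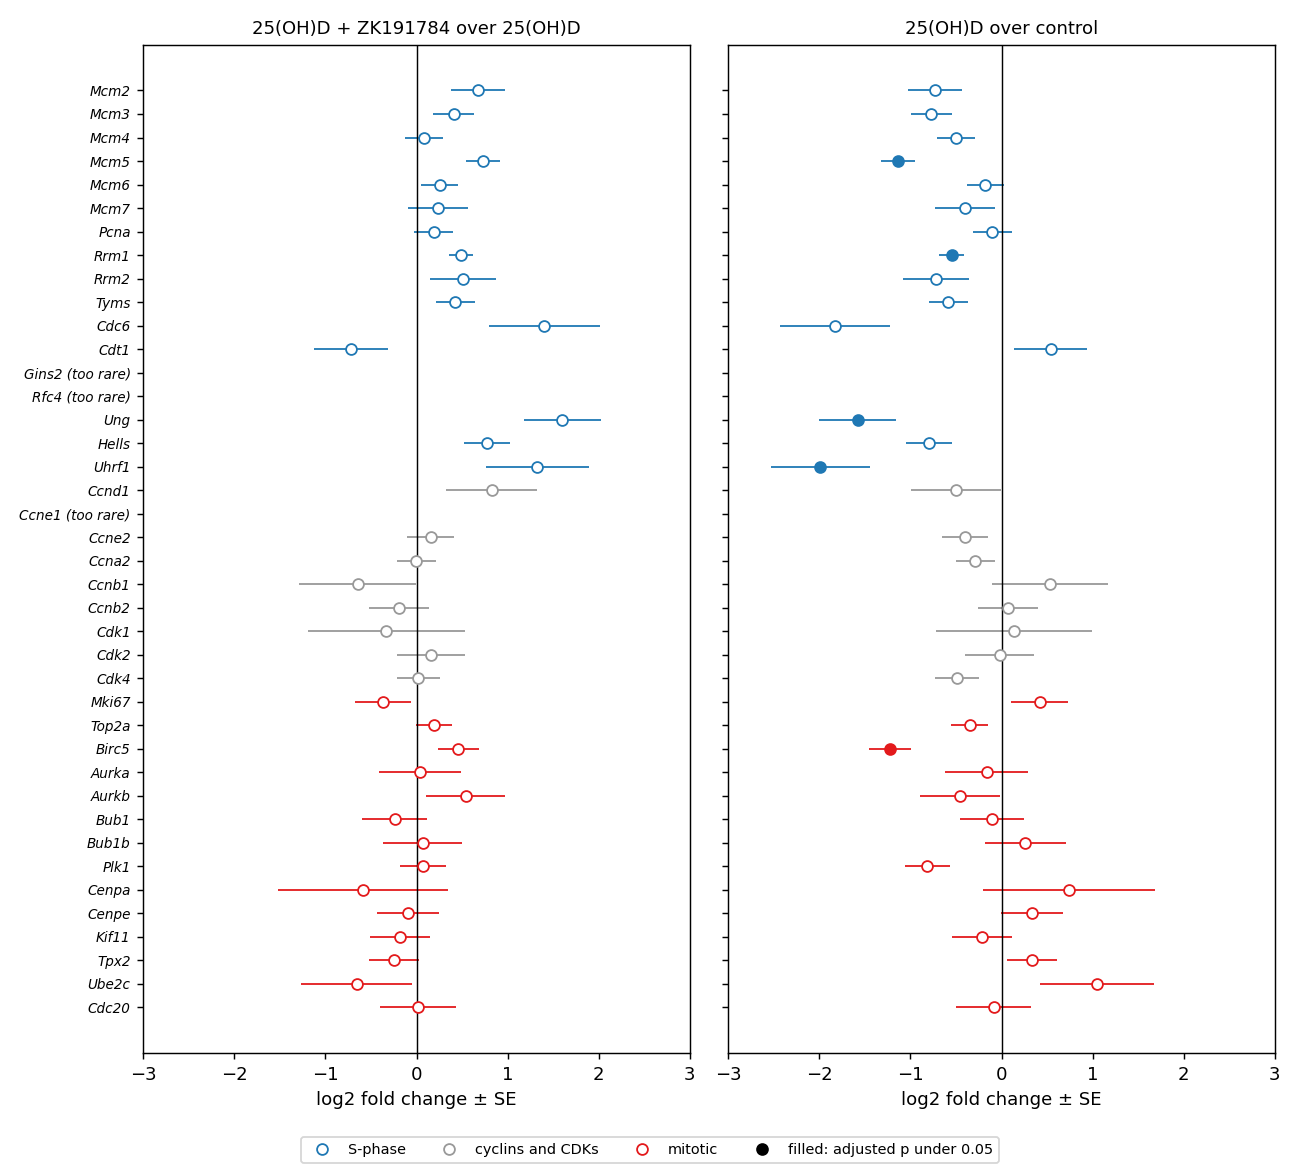
Log2 fold change ± SE (horizontal axes) of each member, for 25(OH)D with ZK191784 over 25(OH)D and for 25(OH)D over control, coloured by class, with filled points for an adjusted p under 0.05. In 25(OH)D over control 14 of the 15 tested S-phase genes are left of 0, with Cdt1 to the right, and the 5 filled points are Mcm5, Rrm1, Ung, Uhrf1 and Birc5. Both panels use the same 25(OH)D libraries.

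Adding BGP to 25(OH)D gave no called member, and 0% of all genes were called in either direction. With edgeR 1 member had an unadjusted p under 0.05 and was higher (0.695% of all genes were higher at this level), and DESeq2 called none. That member was Rrm1, with 46.8, 42.2 and 43.8 CPM with BGP, against 37.7, 32.1 and 36.2 CPM with 25(OH)D alone (0.33 ± 0.14, adjusted p = 1, edgeR). Its groups were apart, as were those of 2.38% of all genes in this direction. The S-phase average was 3.47, 3.49 and 3.47 log2(CPM + 0.5) with BGP and 3.31, 3.23 and 3.30 with 25(OH)D alone, a difference of 0.20 with the libraries apart. Medians of the tested genes were 0.16 for S-phase, -0.35 for cyclins and CDKs, -0.16 for mitotic genes and -0.02 for all genes. In the wider lists they were 0.02 for other replication genes and 0.0003 for other mitotic genes.

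Against control, the 2 combinations differed in how many members were called. The tests share the control libraries with the first comparison. With BGP, 5 members were lower and none higher, with 4.35% of all genes called lower and 3.9% higher: Birc5, Mcm5, Tyms, Hells and Uhrf1. With ZK191784 none was called by edgeR or DESeq2 (of all genes, 0.215% were called lower and 0.507% higher), and 3 had an unadjusted p under 0.05, all lower (3.24% of all genes), namely Birc5, Plk1 and Mcm5. The libraries of 18 tested members with BGP (11.2% of all genes) and of 8 with ZK191784 (5.86% of all genes) were all below the control libraries. Ung and Uhrf1, among the 18, had passed the filter through groups where they were high. The difference between the counts with BGP and with ZK191784 is not a test of BGP against ZK191784, which was not made. Birc5 had 90.0, 58.5 and 70.8 CPM with BGP, against 209, 148 and 213 CPM in control, and fell by 1.379 (SE 0.23, adjusted p = 0.00188). Mcm5 had 38.4, 25.9 and 31.8 CPM with BGP, against 67.6, 67.2 and 55.9 CPM in control, and fell by 0.99 (SE 0.19, adjusted p = 0.00458). Both groups were apart from control for these genes.

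Hells had 4.77, 7.07 and 6.94 CPM with BGP, against 11.03, 13.3 and 14.7 CPM in control, and fell by 1.04 (SE 0.25, adjusted p = 0.0223, edgeR). Tyms had 11.5, 13.7 and 13.7 CPM with BGP, against 21.3, 24.9 and 20.2 CPM in control, and fell by 0.77 (SE 0.21, adjusted p = 0.0420). Uhrf1 had 0.561, 1.07 and 0.771 CPM with BGP, against 2.40, 4.00 and 4.04 CPM in control, and fell by 2.06 (SE 0.54, adjusted p = 0.0325), having passed the filter through control and in no library with BGP. Each of the 3 had groups apart from control. Their calls were lost without BGP libraries 1, 2 or 3 (adjusted p = 0.0891, 0.0545 and 0.0629 for Hells, 0.137, 0.111 and 0.111 for Tyms, 0.107, 0.0724 and 0.125 for Uhrf1). They were also lost without control libraries 2 or 3 (0.0803 and 0.0759 for Hells, 0.166 and 0.0601 for Tyms, 0.111 and 0.0896 for Uhrf1), and for Tyms without control library 1 (0.0859). Among members not called, Ccna2 had 16.3, 13.3 and 14.7 CPM with BGP, against 25.4, 22.3 and 24.3 CPM in control (-0.71 ± 0.22, adjusted p = 0.0716), and Top2a had 144, 126 and 134 CPM, against 180, 179 and 218 CPM in control (-0.51 ± 0.20, adjusted p = 0.173). Both were apart.

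With ZK191784 against control, Birc5 differed by -0.77 ± 0.22 (adjusted p = 0.240, edgeR), Plk1 by -0.74 ± 0.25 (0.380) and Mcm5 by -0.41 ± 0.18 (0.731), and all 3 had groups apart. Several genes that were low with 25(OH)D alone had ZK191784 libraries overlapping control: Ung differed from control by 0.03 ± 0.38, Hells by -0.02 ± 0.24 and Mcm2 by -0.05 ± 0.29. For such values the SE bounds what these 3 libraries per group could show. Ung had passed the filter through control and ZK191784, where it was high, so its value here is conditioned on that. Rrm1 (-0.06 ± 0.13) and Mcm4 (-0.42 ± 0.21) were, like Mcm5, apart and lower than control. The S-phase medians of the tested genes against control were -0.61 with BGP, -0.17 with ZK191784 and -0.71 with 25(OH)D alone, beside mitotic medians of -0.03, -0.01 and -0.10. In the wider lists these medians were -0.26, -0.09 and -0.36 for other replication genes. For other mitotic genes they were -0.24, -0.13 and -0.39. The tested member cyclins and CDKs had medians of -0.45, -0.16 and -0.15. On the sum, the mitotic class lay further below control than the S-phase class in both combinations. It was 34.6% lower with BGP and 21.6% with ZK191784, against 22.4% and 10.95%. Mitotic sums with BGP (346 to 364 CPM) were apart from control (462 to 648 CPM), and those with ZK191784 (350.5 to 522 CPM) overlapped. Top2a and Birc5 hold most of the mitotic sum. Over the 17 S-phase genes, the 25(OH)D group had the lowest mean CPM for 11 and control the highest for 11. No such count was made over all genes, so nothing is read from this order. When the 3 groups with 25(OH)D were averaged against control, 4 members were lower, Birc5, Mcm5, Uhrf1 and Plk1 (4.23% of all genes were called lower). Plk1 fell by 0.78 in this average (SE 0.19, adjusted p = 0.0244), with 29.7, 30.6 and 38.0 CPM with BGP, and lost the call when control library 3 was left out (adjusted p = 0.144) or 25(OH)D library 2 was (0.0514). Uhrf1 fell by 1.57 (SE 0.39, adjusted p = 0.0257), a call lost without control libraries 2 or 3, 25(OH)D library 2, BGP library 3 or ZK191784 libraries 2 or 3 (0.0515 to 0.135). It had reached the limit of the filter in 3 control libraries and 1 with ZK191784 only, so this call too is conditioned on that.

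Of the members, 3 were too rare to test. Gins2, a subunit of the helicase complex, had 14 counts with BGP, 11 with ZK191784, 3 with 25(OH)D and 11 in control. It had 0.267, 0.241 and 0.264 CPM with 25(OH)D, against 1.68, 0.422 and 0.476 CPM in control. Its ratio of 25(OH)D to control was 0.306 (95% exact binomial interval 0.0549 to 1.16, which covers counting error only). Its libraries were apart in that comparison, at the smallest p that 3 against 3 libraries allow (exact permutation test, 2-sided, p = 0.1). They were also apart, at the same p, over 25(OH)D alone. There the ratio was 4.06 with BGP (interval 1.13 to 22.0) and 3.14 with ZK191784 (0.829 to 17.5). All of these comparisons share the 25(OH)D libraries, with their 3 counts. Rfc4, a subunit of the clamp loader, had 27, 21, 22 and 23 counts in the same order of groups, and Ccne1, a cyclin E gene, had 11, 20, 12 and 24. Ccne1 had 1.34, 0.723 and 1.06 CPM with 25(OH)D and 1.20, 1.90 and 2.38 CPM in control. Both overlapped between 25(OH)D and control (exact permutation p = 0.9 for Rfc4 and 0.2 for Ccne1). Exons of Gins2 and of Rfc4 overlap a gene on the opposite strand, by up to 2758 and 186 bases. The counts and ratios of Gins2 and the counts of Rfc4 are therefore uncertain.

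The other genes of these pathways, 149 in 5 lists of which 139 were tested, were read in the same fit, against 3.93% of all genes called lower, 4.76% called higher and a median of -0.05. Of 44 other replication genes, 5 fell and 1 rose with 25(OH)D against control, with a median of -0.36. Rpa2, a subunit of the single-strand binding protein RPA, had 43.6, 43.4 and 59.2 CPM with 25(OH)D, against 137, 114 and 85.2 CPM in control, and fell by 1.21 (SE 0.20, adjusted p = 0.00180, edgeR). Dnmt1, the maintenance DNA methyltransferase that UHRF1 recruits, had 34.2, 28.7 and 27.2 CPM with 25(OH)D, against 54.4, 52.9 and 49.5 CPM in control, and fell by 0.80 (SE 0.15, adjusted p = 0.00487). The groups of both were apart. The replication checkpoint gene Clspn, the DNA ligase Lig1 and the polymerase subunit Pola1 were the other 3 that fell. The large RPA subunit Rpa1 went the other way, with 152, 132 and 61.0 CPM with 25(OH)D against 33.1, 32.9 and 46.6 CPM in control, and rose by 1.62 (SE 0.35, adjusted p = 0.0105). Its level was highest in the library with the highest ribosomal ratio in each of the 4 groups.

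Of 57 other mitotic genes tested, 3 fell with 25(OH)D, the kinetochore genes Cenpm and Cenpi and the checkpoint kinase gene Ttk, and the median was -0.39. A count of 3 in 57 is near the 3.93% of all genes called lower. Cenpm had 3.21, 4.34 and 4.23 CPM with 25(OH)D, against 9.11, 11.2 and 10.7 CPM in control, and fell by 1.39 (SE 0.29, adjusted p = 0.00940, edgeR). This wider mitotic list therefore had a lower median than the 14 mitotic members (-0.10). The next lists are short and have 1 call each, from which nothing is read about the list. Of 20 regulators of the E2F, RB and DREAM families 1 fell: E2f1 had 6.42, 6.27 and 5.81 CPM with 25(OH)D, against 11.7, 12.2 and 21.2 CPM in control, apart, and fell by 1.28 (SE 0.36, adjusted p = 0.0434). Of 13 other cyclins and CDKs 1 fell, the D-type cyclin Ccnd2, with 358, 388 and 442 CPM with 25(OH)D, against 609, 706 and 652 CPM in control (SE 0.13, adjusted p = 0.00240), a fall by 0.73. None of the 5 CDK inhibitors tested was called by edgeR or DESeq2, and 1 had an unadjusted p under 0.05, Cdkn1b (p27), with 256, 188 and 82.7 CPM with 25(OH)D and 63.5, 54.8 and 126 CPM in control (1.11 ± 0.49, adjusted p = 0.228). The groups of Cdkn1b overlapped. Cdkn1a (p21) averaged 297 ± 34.1 CPM with 25(OH)D and 329 ± 34.9 CPM in control (SD, n = 3 each), also with overlap. These CDK inhibitors were named after their values were seen.

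In the comparison of 25(OH)D with ZK191784 against 25(OH)D alone, none of the 139 genes was called by edgeR. DESeq2 called 1 of them, among the other replication genes. At an unadjusted p under 0.05, 6 other replication genes were higher and 2 lower, and 2 other mitotic genes were higher, beside 5.31% of all genes higher and 6.1% lower. Lig1 had the smallest p of the 139, with 94.8, 90.6 and 120 CPM with ZK191784 and 57.2, 54.7 and 72.1 CPM with 25(OH)D alone (0.73 ± 0.21, adjusted p = 0.0839, edgeR). Rpa1 was 1 of the 2 that were lower (-0.87 ± 0.34, adjusted p = 0.293), and 13 of the 44 tested had a negative difference. With BGP against control, Rpa2, Dnmt1, Lig1 and the clamp loader subunit Rfc2 fell and Rpa1 rose among the replication genes, and Cenpm and Ccnd2 fell. With BGP against 25(OH)D alone none of the 139 was called by edgeR or DESeq2, and 4 had an unadjusted p under 0.05 with edgeR, all higher. Of all 14394 genes tested, 100 were higher and 168 lower at this level.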

How the data were processed

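Whole-number counts per gene symbol, as deposited by the authors, were used for 12 libraries of MC3T3-E1 cells in 4 groups of 3. Per the labels' protocols, RNA was extracted with TRIzol and libraries were made with the QuantSeq 3′ kit. Per the submitters' processing notes, STAR 2.7.9a, featureCounts of Subread 2.0.3, the mouse genome mm39 and DESeq2 1.38.2 were used, the last without its role. No source used here gives the annotation, strand setting or filters.

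Of 56691 entries, 20212 had 0 counts in all libraries and 882 had a repeated symbol. The filter of edgeR 4.0.16 (R 4.3.3; filterByExpr, min.count 10, min.total.count 15) kept 14394 genes with 99.4% of the counts. A robust quasi-likelihood model with 1 coefficient per group and TMM scaling was fitted to all 12 libraries, and p-values were adjusted by Benjamini-Hochberg over all 14394 genes, with calls at 0.05. Each SE is approximate and was obtained from the log2 fold change and its quasi-likelihood F. The common biological coefficient of variation was 0.292. Class levels used a pseudocount of 0.5. The ribosomal ratio used 90 ribosomal protein genes and 25872 Gm-numbered genes and pseudogenes. Members, classes, lists and the ratio were chosen with earlier results of these data known. All 40 members were accounted for, with library values for those called in any comparison, those at an unadjusted p under 0.05 in a main comparison and those with the highest and lowest mean CPM of a class; of the other lists, up to 3 called genes with the smallest p were given per comparison. The method was checked on simulated data.

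Alternatives were RLE scaling, DESeq2 1.42.0, no filter, a filter at 2 CPM in 3 libraries, a replicate block, the ribosomal ratio as a covariate, the compared groups alone and leaving out each library. Promoters were RefSeq windows of build GRCm38.p6, another build than that of the counts. Overlapping genes were looked up in GENCODE vM21. Python 3.11.15 with matplotlib 3.10.9 drew the figures.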

Additional observations from a re-analysis of the deposited data

How the results depend on the processing

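With 3 libraries a group, the depth and spread limit what could be called: genes with about 1 CPM, such as Uhrf1, rest on a few counts per library. Of 14 calls of single members, those of Birc5 and Mcm5 held under every alternative in each of the 3 comparisons with control in which they were called, and no result changed its sign among called values. RLE scaling and a filter at 2 CPM in 3 libraries left every count of called members as it was. The cause of the changes below was not tested.

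Members called lower with 25(OH)D against control (5 as reported) numbered 14 with the ribosomal ratio as a covariate, 9 with DESeq2, 2 in a fit of the compared groups alone, 2 in 8 libraries without the highest ribosomal ratio of each group (chosen after seeing the data), and 2 to 4 when each library was left out. Without a filter 4 were called, Birc5, Mcm5, Mcm3 and Plk1, so that 2 of the 5 were kept. All genes called lower in this comparison numbered 565 as reported, 1395 with the covariate and 725 with DESeq2. They numbered 336 in the compared groups alone, 408 in the 8 libraries, 351 to 492 without each library and 551 without a filter. With BGP against control (5 as reported) members called lower numbered 3 without a filter, 11 with the covariate and 7 with DESeq2. They numbered 2 in the compared groups alone, 2 in the 8 libraries and 2 to 4 without each library. All genes called lower in these fits numbered 590, 1540, 821, 339, 397 and 370 to 519, against 626 as reported. For the mean of the 3 25(OH)D groups against control, 4 members were called lower as reported. They numbered 11 with the covariate, 6 with DESeq2, 2 in the 8 libraries and 2 to 5 without each library. All genes called lower in these fits numbered 1437, 762, 436 and 397 to 621, against 609 as reported. With ZK191784 against 25(OH)D (0 as reported), 6 members were higher and 1 lower with the covariate, 3 higher with DESeq2 and 0 to 1 higher without each library. Of all genes, 5.42% were higher and 5.96% lower with the covariate, and 2.33% higher with DESeq2. With ZK191784 against control (0 as reported), 1 member was lower without a filter (Birc5) and 2 with the covariate (Birc5 and Plk1). All genes called lower numbered 66 and 324 in these 2 fits, against 31 as reported.

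The replicate number as a block gave 2 members lower, against 5, with 25(OH)D and with BGP against control, and 2, against 4, for the mean of the 3 groups. The other counts of members stayed at 0. All genes called lower in those 3 comparisons numbered 425, 460 and 465 with the block, against 565, 626 and 609 as reported. Same-numbered libraries did not deviate together (correlations from -0.71 to 0.61), so the numbers are not known to pair the libraries.

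The S-phase minus mitotic median differed with the library left out. It was -0.86 to -0.42 for 25(OH)D against control (-0.62 as reported) and 0.27 to 0.60 for ZK191784 against 25(OH)D (0.53). It was -0.71 to -0.19 for BGP against control (-0.58), lowest in size without BGP library 2, 0.0049 (without 25(OH)D library 1) to 0.41 for BGP against 25(OH)D (0.31), and -0.35 to 0.10 for ZK191784 against control (-0.15), positive without control library 2 or ZK191784 library 1. With the ribosomal ratio as a covariate it was -0.26 for BGP against control. In the 8 libraries it was 0.06 for BGP against 25(OH)D.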
